A study of Rattus norvegicus with 8 samples.

Results

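The 4 hypothalamus libraries of the series are described here, out of 8 libraries in all, as the samples whose labels name that tissue. They came from outbred male rats of the Sprague Dawley stock, which were 2 months old when the diet began. All 4 libraries belong to 1 arm, in which the animals ate food supplemented with omega-3 fatty acids, given in the labels as docosahexaenoic acid (DHA), and drank water with 15% fructose for 6 weeks. With 1 arm there is no effect of fructose or of DHA to measure, so the questions asked were which genes were most abundant, which functions they serve and how far they varied between libraries. The labels number the libraries as replicates 1 to 4 without saying whether each came from a separate animal, so the SDs below describe these libraries and may be technical.

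Values are FPKM, that is fragments scaled by transcript length and by library size, summed over the loci of a gene symbol and divided by a scaling factor per library (0.991 to 1.02). The number of reads behind them is unknown. Means are given ± SD over the 4 libraries. Of 16154 symbols, 10804 had a mean of at least 1 FPKM and are the genes ranked below, 2654 had a lower mean and 2696 were listed at 0 in every library. A listed 0 is not read as missing expression, because Hprt1, a purine salvage enzyme of every cell, was at 0 in all 4 libraries, and Ppia, an abundant prolyl isomerase, stood at 1.97, 0.315, 0.0847 and 0.0808 FPKM. In bulk tissue, fewer cells of a type and less RNA per cell cannot be told apart.

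The hypothalamus is a small brain region that ties the nervous system to the pituitary. Its magnocellular neurons release vasopressin and oxytocin, its arcuate and lateral neurons use peptides to set feeding and arousal, and its peptides are cut from longer precursors in dense-core granules that also carry granin proteins. Tanycytes and astrocytes line and support it, and the pars tuberalis of the pituitary, the choroid plexus and the meninges lie close by.

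Replicate 1 stood apart from the other 3 libraries. Across the 10804 genes, the correlation of log2(FPKM + 1) was 0.951 to 0.957 in the 3 pairs with replicate 1 and 0.984 to 0.989 in the other 3 pairs (genes are not independent replicates). Between replicate 1 and another library, 758 to 886 genes were at least 2-fold apart, against 131 to 205 between the others. The way loci were filled also differed. For 827 symbols with 2 loci and a mean of at least 5 FPKM, the lower locus held a median of 5.76% of the symbol's FPKM in replicate 1 and 17.8%, 19.3% and 20.5% in replicates 2, 3 and 4. That locus was at 0 in replicate 1 alone for 109 of the 740 symbols in which the other 3 libraries all listed it above 0, against 5 of 636, 5 of 636 and 12 of 643 symbols for replicates 2, 3 and 4. The labels give no batch, so counts that rest on replicate 1 are given with and without it.

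The label of the tissue was checked against its markers. Avp and Oxt, encoding vasopressin and oxytocin, were among the 20 most abundant genes, and Pmch, Hcrt, Trh, Agrp, Otp, Nkx2-1 and Hdc were all above 1 FPKM in each library. Npy, a feeding peptide of arcuate neurons, was listed at 0 in all 4 libraries. Of 22 genes of cortical and hippocampal neurons kept, 17 had a mean of at least 1 FPKM, and their defining glutamate transporter Slc17a7 stood at only 0.144, 0.286, 0.731 and 1.02 FPKM. Slc17a6, the vesicular glutamate transporter of hypothalamic neurons, stood at 84.5, 44.5, 43.1 and 46.2 FPKM.

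Abundance was steeply graded. The most abundant 10, 100 and 1000 genes of each library held 9.44% ± 1.42, 28.2% ± 1.95 and 62.8% ± 1.31 of the summed FPKM (SD, n = 4). Replicate 1 had the flattest distribution, with 7.81% in its top 10 against 9.30 to 11.3% in the others. A mean of 1000 FPKM or more was reached by 41 genes, which held 18.5% of the total, while 761 genes between 100 and 1000 FPKM held 40.1% and 5408 genes between 10 and 100 held 36.5%. The remaining 4594 genes, from 1 to 10 FPKM, made up 42.5% of the genes and 4.90% of the total. The genes at ranks 100, 500 and 1000 stood at 533, 150.5 and 81.1 FPKM.

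**Figure D1:**
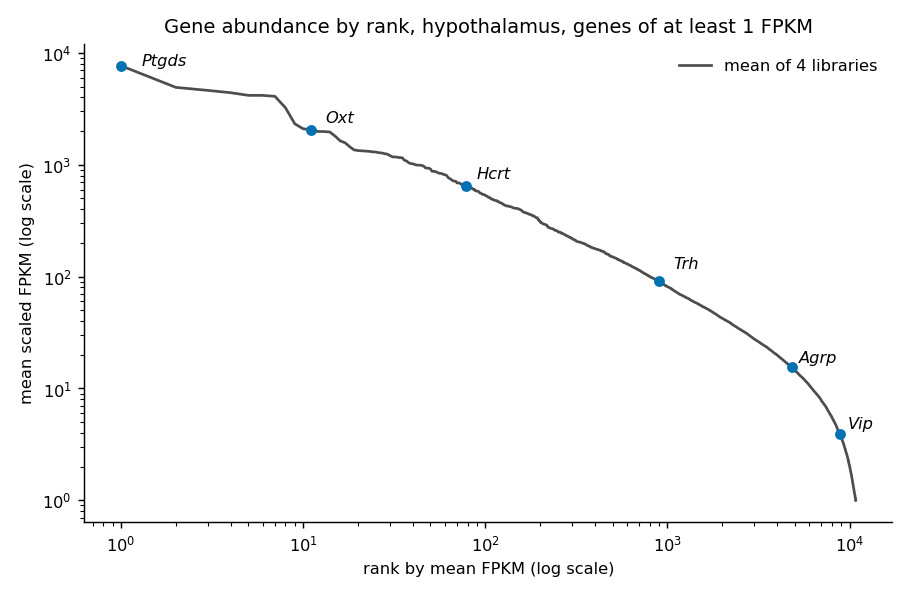
Mean scaled FPKM of the 10804 genes of at least 1 FPKM against their rank, both axes on log scales, with 6 genes marked in blue. Ptgds is first at 7674 FPKM, and the marked peptide genes spread from rank 11 (Oxt) to rank 8837 (Vip).

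The top 20 ranks mixed secreted glial proteins, 2 neurohypophysial hormones, myelin, protein turnover and energy genes. Ptgds, which makes prostaglandin D2 and is a main product of the meninges, was first with 4361, 12418, 5869 and 8048 FPKM in replicates 1 to 4. It was highest in replicate 2 and lowest in replicate 1, a 2.85-fold range. Ubb, a polyubiquitin gene, was next at 4914 ± 531 FPKM and ranged 1.25-fold. Avp held rank 3 with 2179, 7952, 5675 and 2665 FPKM. Its values formed a high pair, replicates 2 and 3, and a low pair, replicates 1 and 4, that did not overlap. Oxt, made in sister neurons of the same nuclei, held rank 11 with 1844, 2207, 2299.8 and 1899 FPKM. The same pairs of libraries were high and low, over a range of 1.25-fold against 3.65-fold for Avp. Gnas, encoding the stimulatory G protein alpha subunit, and Cst3, a secreted protease inhibitor, followed Avp at 4404 ± 520.0 FPKM and 4171 ± 696 FPKM.

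Glial products and genes every cell uses filled most other places at the top. Apoe, the main lipid carrier of the brain, stood at 4746, 3879, 3677 and 4359.8 FPKM and was the most abundant gene of replicate 1. Mbp, a structural protein of myelin, stood at 3125, 3787, 4002 and 5435 FPKM, with replicate 4 the highest. Apoe was highest and Mbp lowest in replicate 1. Fth1, the ferritin heavy chain that stores iron, was at 3226 ± 347 FPKM, and Uchl1, a neuronal ubiquitin hydrolase, at 2322 ± 192 FPKM. Clu, a secreted chaperone, was at 1979 ± 163 FPKM, and Tmsb4x, an actin-binding peptide, at 1799 ± 167 FPKM. Mt3, a metal-binding protein of brain, was at 1571 ± 88.6 FPKM, and Scd, a fatty acid desaturase, at 1339 ± 81.2 FPKM. In all 6 the highest and lowest libraries were close. Atp5j2 and Cox6a1, subunits of ATP synthase and cytochrome oxidase, were at 1631 ± 192 FPKM and 1358 ± 243 FPKM, near Actb, a cytoplasmic actin, at 1451 ± 181 FPKM.

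The mean hid uneven libraries in a few of the 20. Nnat, an imprinted proteolipid gene of neuroendocrine cells, stood at 989, 2458, 2469.7 and 2462 FPKM, so replicate 1 was the low library and the other 3 were nearly equal. LOC685322, which matched no entry of the RefSeq gene table, stood at 71.6, 4298, 3436 and 48.5 FPKM, high in replicates 2 and 3 and low in replicates 1 and 4. Zwint, a gene named for its part in the kinetochore, stood at 2498, 1678, 1872 and 1886 FPKM and was highest in replicate 1. The order within the top 20 was loose. In 18 of 19 neighbouring pairs of ranks the libraries of the lower gene overlapped with those of the higher one, and the step from Fth1 to Uchl1 was the exception. Of the 20 genes, 13 were in the top 20 of every library, and of the top 100 genes 75 were in the top 100 of every library.

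**Figure D2:**
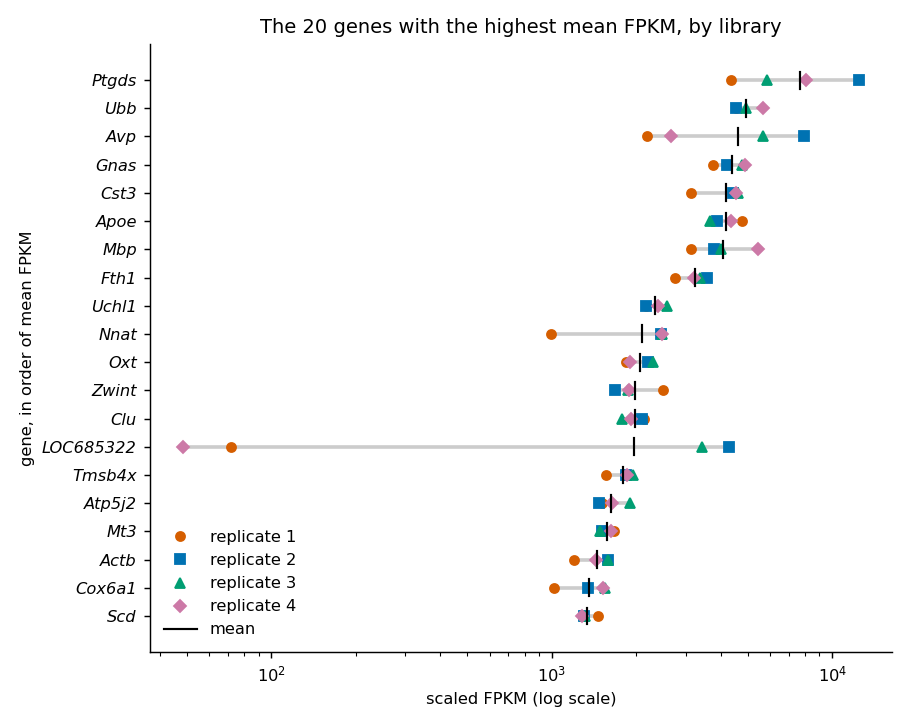
Scaled FPKM (log scale) of the 20 genes with the highest mean, 1 symbol per library and a bar at the mean. Most genes span less than 1.5-fold, while Ptgds, Avp, Nnat and LOC685322 spread over 2-fold or more.

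Of the 500 most abundant genes, 214 belonged to at least 1 of 42 functional or cell type lists, and of the top 100, 66. Of all 10804 genes ranked, 973 did. The lists were chosen with earlier results of these data known, so this coverage is a description only. The top 100 are 0.926% and the top 500 are 4.63% of all genes ranked. That is the share of the members of any 1 list that would fall there by size alone. Astrocyte genes were the most frequent at the very top, with 11 of 24 members in the top 100 and 18 in the top 500, and 4.75% ± 0.12 of the summed FPKM (SD, n = 4). None of the 24 was variable, a call made where the highest library was at least 2 times the lowest, as it was in 13.5% of all genes ranked. Besides Apoe, Cst3, Clu and Mt3 they included Sparcl1, a secreted matrix protein, at 1274 ± 95.9 FPKM, and Agt, the precursor of angiotensin, at 1021, 909, 966 and 984 FPKM, where all 4 libraries lay within 1.12-fold. Myelin genes had 4 of 23 members in the top 100, among them Mbp, above, and Mobp, another myelin protein, at 858, 1191, 1433 and 1735 FPKM. The summed FPKM of the myelin list was 9093, 10205, 10719 and 13186 FPKM, highest in replicate 4 and lowest in replicate 1.

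Energy supply and protein turnover filled much of the rest. Of 70 nuclear-encoded subunits of oxidative phosphorylation, which respire oxygen to make ATP, 10 were in the top 100 and 37 in the top 500, and together they held 4.44% ± 0.29 of the FPKM. Their median gene stood at 165 FPKM, against 12.9 for all genes ranked. Mitochondrially encoded genes were not found among the symbols by their usual names. These nuclear subunits thus ranked far above the typical gene. Of 14 glycolytic genes, 4 were in the top 100, with Gpi, the isomerase that follows hexokinase, at 719, 956, 1156 and 1101 FPKM, lowest in replicate 1, and the aldolase Aldoa at 933 ± 48.8 FPKM. Ion pumps placed 14 of 20 members in the top 500, among them Atp1b1, a subunit of the sodium pump, at 871 ± 178 FPKM. Chaperones and ubiquitin genes placed 13 of 23 there, with Hsp90ab1, a cytosolic chaperone, at 557, 603, 580.1 and 592 FPKM, a range of only 1.08-fold.

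Ribosomal protein genes were listed unevenly. Of 81 kept, 67 had a mean of at least 1 FPKM, and only 16 were in the top 500, although these proteins are made in near equal amounts in every cell. Rpl41, which makes a small ribosomal peptide, stood at 1243 ± 55 FPKM. Rps18 and Rps6, of the small subunit, stood much lower, Rps18 at 2.58, 1.82, 1.5 and 1.27 FPKM and Rps6 at 20.7, 8.12, 7.11 and 4.6 FPKM. Ribosomal protein genes have many near-identical pseudogene copies, so their values are uncertain.

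Genes of the neuron's cytoskeleton and synapse ranked high, but several were far lower in replicate 1. Of 31 tubulin, actin and related genes, 18 were in the top 500, and of 32 synaptic vesicle genes also 18. Snap25, a membrane fusion protein, stood at 297, 394, 463 and 518 FPKM. Vamp2, its vesicle partner, stood at 286, 1355, 1503 and 1478 FPKM, and Sncb, beta-synuclein, at 375, 1281, 1404 and 1562 FPKM. Tuba1a, a neuronal alpha tubulin with close paralogs, stood at 40.3, 573, 745 and 686 FPKM. In Vamp2, Sncb and Tuba1a, replicate 1 was the low library and the other 3 lay close together. The summed FPKM of the synaptic vesicle list was 4668, 7582, 8343 and 8508 FPKM.

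Genes listed under granins and peptide processing were abundant, and their summed level was even. The list also holds genes with wider roles, and Gnas, a G protein subunit, alone made up 4404 of its mean sum of 9859 FPKM. The share below is thus not that of peptide machinery alone. Of 21 members kept, 20 had a mean of at least 1 FPKM. Of 20 granin and processing genes, 5 were in the top 100 and 11 in the top 500, and the list held 2.18% ± 0.061 of the FPKM (SD, n = 4). Besides Gnas, they were led by Resp18, a secretory granule protein, at 1319.8, 1159, 1399 and 1141 FPKM. Cpe, the carboxypeptidase that trims peptide ends, stood at 678, 619, 665 and 654 FPKM, within 1.09-fold. All 4 values lay close together. Scg2, Scg5 and Scg3, secretogranins of the granule core, were at 488 ± 32.3 FPKM, 361 ± 20.2 FPKM and 182 ± 20.4 FPKM. Ndn, encoding the imprinted protein necdin, was at 562 ± 37.2 FPKM, and Pam, which amidates peptides, at 153 ± 15.2 FPKM. Of the 20 genes, 3 were variable, near the 13.5% of all genes ranked, and 1 was without replicate 1. Ptprn, a granule membrane protein, was at 277, 628, 633 and 595 FPKM, low in replicate 1 only, and Chga, chromogranin A, was at 234, 549, 448 and 391 FPKM. The third was Pcsk1n, an inhibitor of the prohormone convertase, at 7.54, 11.5, 6.57 and 14.1 FPKM, where replicates 1 and 3 were low.

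Neuropeptide genes themselves spanned nearly the whole abundance range. Of 36 listed, 31 had a mean of at least 1 FPKM, 4 were in the top 100 and 8 in the top 500, and the list held 2.25% ± 0.51 of the FPKM. Behind Avp and Oxt came Pmch, encoding melanin-concentrating hormone, at 1221, 629, 518 and 1071 FPKM, and Hcrt, encoding the orexins, at 727, 629, 392 and 841 FPKM. Both are made by lateral hypothalamic neurons, and in both replicates 1 and 4 were high and replicate 3 was lowest. Cartpt, a precursor of appetite-suppressing peptides, was at 726, 350.3, 344 and 294 FPKM, with replicate 1 at least 2-fold above the rest. Sst, encoding somatostatin, was at 451, 508, 352 and 295 FPKM, Penk, encoding enkephalins, at 214 ± 17.3 FPKM, and Tac2, a tachykinin precursor, at 189 ± 21.8 FPKM.

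Pomc, the precursor of melanocortins, was at 243, 129.7, 86 and 61.9 FPKM, and Agrp, the antagonist of melanocortin receptors, at 24.7, 16.1, 13.7 and 7.35 FPKM. In both, replicate 1 was highest and replicate 4 lowest. Gal, encoding galanin, was at 115 ± 23.6 FPKM, and Trh, the releasing hormone of thyrotropin, was even at 94.3, 94.8, 84.7 and 87.9 FPKM, a range of 1.12-fold. Further down were Ghrh and Crh, releasing hormones of growth hormone and corticotropin, with Ghrh at 15.8, 32.9, 20.8 and 13.3 FPKM and Crh at 4.98, 6.58, 7.44 and 8.94 FPKM. Ghrh was highest in replicate 2 and Crh in replicate 4. Kiss1, which drives the reproductive axis, and Gnrh1, the hypothalamic hormone of that axis, stood at 4.12 ± 0.966 FPKM and 11.1 ± 2.76 FPKM. Vip, a peptide of the suprachiasmatic nucleus, stood at 8.64, 3.63, 1.83 and 1.62 FPKM, again highest in replicate 1. Of the 31 genes, 13 were variable, against 13.5% of all genes ranked, and Trh alone was steady, a call made where the ratio of highest to lowest library was at most 1.2, as it was in 16.9% of all genes. Without replicate 1, 9 of 31 were variable, against 3.01% of all genes.

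Transcription factor genes that define hypothalamic neurons ranked low. None of 29 transcription factors was in the top 1000, which is 9.26% of all genes ranked, and their median was 4.54 FPKM. Lhx1, a LIM homeobox gene, led them at 60.3, 55.8, 49.9 and 65.2 FPKM, followed by Arnt2, a partner of Sim1, at 35.5 ± 6.04 FPKM and Pou3f2, a POU factor, at 18.8 ± 1.52 FPKM. Otp, needed for neuroendocrine neurons, was at 10.4, 21.6, 15.2 and 14.1 FPKM, Fezf1, of the ventromedial nucleus, at 19.9, 17.6, 11.2 and 11 FPKM, and Nkx2-1, of the ventral hypothalamus, at 12.9 ± 1.29 FPKM. Otp was highest in replicate 2, as Avp was, while Fezf1 was higher in replicates 1 and 2 than in 3 and 4. Lhx8 and Lhx6, homeobox genes of ventral forebrain neurons, stood lower, Lhx8 at 0.412, 1.16, 5.61 and 3.3 FPKM and Lhx6 at 1.89, 2.63, 6.56 and 5.1 FPKM, both high in replicates 3 and 4.

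Of 31 receptors of energy balance and hormones, 1 was in the top 500 and 3 in the top 1000. These counts are near the 4.63% and 9.26% of all genes ranked. Their median stood at 5.29 FPKM, against 12.9 for all genes ranked. Ntrk2, the receptor of brain-derived neurotrophic factor, was highest at 195 ± 26.1 FPKM. Ramp2, a partner of calcitonin-family receptors, was at 95.7, 152, 158 and 160.3 FPKM and Cntfr, a cytokine receptor, at 34.6, 73.6, 73.5 and 73.4 FPKM. Replicate 1 was lowest for both, and for Cntfr the other 3 were equal to within 1 FPKM. Calcr, the calcitonin receptor, was at 59.5, 42.6, 43.5 and 36.6 FPKM, highest in replicate 1. The melanocortin receptors Mc3r and Mc4r were at 6.64 ± 0.742 FPKM and 2.88 ± 0.17 FPKM, and Esr1, the estrogen receptor, at 1.73 ± 0.498 FPKM.

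Most genes tied to the diet's nutrients lay below the top 500, as do most genes ranked. Of 40 fatty acid and DHA genes, 4 were in the top 500 and 8 in the top 1000. These tops are 4.63% and 9.26% of all genes ranked. Of the 40 genes, 5 were variable and 6 were steady, near the 13.5% and 16.9% of all genes ranked. The list held 1.74%, 3.36%, 1.88% and 2.34% of the FPKM in replicates 1 to 4, highest in replicate 2 as Ptgds was. Its sum was 7416, 15336, 8731 and 10917 FPKM, of which Ptgds alone made up 4361, 12418, 5869 and 8048. The high sum in replicate 2 was thus that of 1 gene, not of the list as a group. Besides Ptgds and Scd the 40 genes were led by Fabp7, a glial fatty acid binding protein, at 173, 208, 143 and 169.7 FPKM and Fads2, which desaturates DHA precursors, at 129.9, 165, 157 and 149.9 FPKM. Mfsd2a, the carrier of DHA across the blood-brain barrier, was at 26.4, 25.2, 32.6 and 29.4 FPKM. Without replicate 1, 3 of the 40 were variable and 25 steady, against 3.01% and 59.2% of all genes. Of 26 fructose and glucose genes, none was in the top 500 and 7 were in the top 1000. Of the 26, 2 were variable, or none without replicate 1. Hk1, which phosphorylates hexoses, was at 129.9 ± 15.6 FPKM, Slc2a1, the glucose carrier of the blood-brain barrier, at 110.1 ± 16.3 FPKM, and Slc2a5, the fructose carrier, at 4.61, 4.64, 7.62 and 4.51 FPKM. The list's share of the FPKM, 0.242% ± 0.0021, was nearly the same in every library. Of 21 cholesterol genes, 3 were in the top 1000, and 1 was variable, or none without replicate 1.

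The promoters of the ranked genes were searched for a TATA motif, the letters where the general transcription machinery binds in some promoters. A RefSeq promoter (rat build GRCr8, 250 bases before the start and 50 after) was found for 8673 of the 10804 genes, matched by symbol or synonym. The motif TATAAA was searched on both strands between 50 and 11 bases before the start. It was present for 21 of 406 genes with a promoter among the top 500 (5.17%), for 20 of 1206 at ranks beyond 500 and up to 2000 (1.66%) and for 113 of 7061 below (1.60%). Among all 27457 RefSeq promoters the share was 3.02%. To show the motif in place, 3 genes are given by the 100 bases before their start, 5′ to 3′ on the gene's strand, with the motif in capitals. Hcrt and Mt3 stand for the top 100 and Cga, a pituitary hormone gene, for those that varied most between libraries. The windows lie at chr10:86191525-86191624 (- strand), chr19:10856081-10856180 (- strand) and chr5:54283240-54283339 (+ strand), in the order given.
Hcrt: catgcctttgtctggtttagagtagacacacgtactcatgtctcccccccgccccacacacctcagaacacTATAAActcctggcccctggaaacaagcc
Mt3: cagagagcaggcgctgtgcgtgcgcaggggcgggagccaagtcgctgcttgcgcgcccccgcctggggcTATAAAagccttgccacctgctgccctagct
Cga: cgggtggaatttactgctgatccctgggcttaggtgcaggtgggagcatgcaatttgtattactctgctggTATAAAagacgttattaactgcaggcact
The motif began 29, 31 and 29 bases before the start. A match is a description of the letters, not of a factor's binding.

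For most genes the highest library was under 1.5 times the lowest, but 4622 of the 10804 genes reached that ratio. The median ratio of highest to lowest library was 1.44 and the median coefficient of variation 16.1%. With a ratio of at least 2, 1462 genes (13.5%) were called variable, and with a ratio of at most 1.2, 1821 genes (16.9%) were called steady. Without replicate 1 the counts were 325 variable and 6391 steady, and the median ratio was 1.17. A range over 3 libraries is narrower by construction, but leaving out replicate 2, 3 or 4 instead gave 1130 to 1238 variable and 2425 to 2650 steady genes. Variable genes were more frequent at low levels, at 18.9% of genes from 1 to 10 FPKM and 9.32% from 10 to 100, and reached 22.0% (9 of 41) at 1000 FPKM or more.

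**Figure D3:**
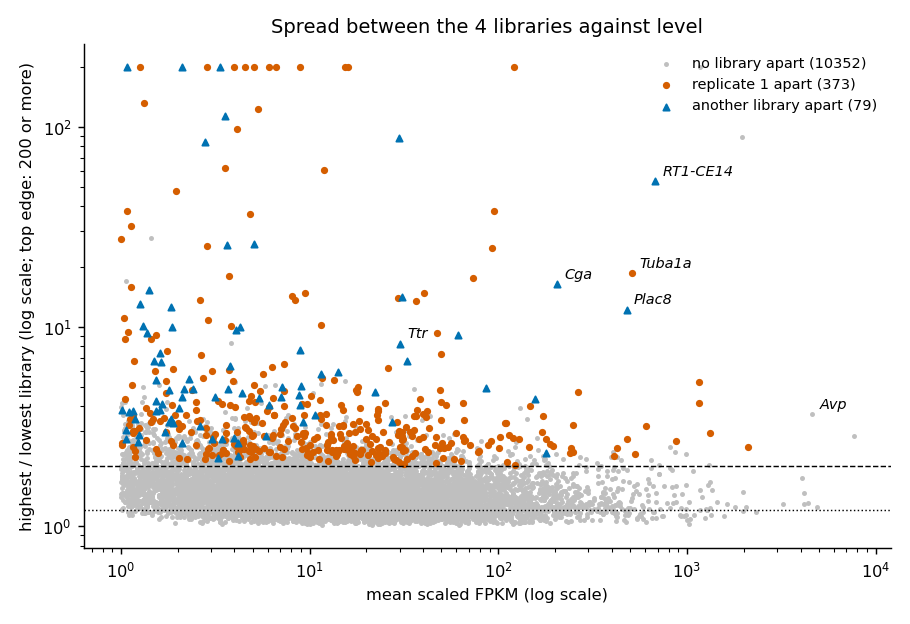
Ratio of the highest to the lowest library against mean scaled FPKM for the 10804 genes, both on log scales, with ratios over 200 and libraries at 0 drawn at the top edge. The dashed line marks 2 (variable) and the dotted line 1.2 (steady), and most coloured points, 373 of 452, are genes in which replicate 1 stands apart.

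The steadiest genes at a mean of at least 5 FPKM were spread over all levels and many functions. Psap, encoding a precursor of lysosomal activators, was the most abundant of the 15 with the smallest SD, at 1009, 1023, 1037 and 1013 FPKM. Gtf2i, a general transcription factor, stood at 62.4, 62.4, 62.7 and 61.5 FPKM, and Eps15, an endocytic adaptor, at 42.3, 42.5, 41.4 and 41.8 FPKM. Ogdhl, of the mitochondrial oxoglutarate dehydrogenase family, stood at 23.8, 23.2, 23.6 and 23.5 FPKM, and Cars, which charges the transfer RNA of cysteine, at 22.6, 22.9, 22.9 and 23.2 FPKM. Slc14a1, a urea transporter, and Glra1, a glycine receptor subunit, stood at 20.8 ± 0.204 FPKM and 6.37 ± 0.0865 FPKM. The other 8 of the 15, Rqcd1, Ppap2a, Mmgt2, Tspyl2, Gatad2b, Fam168a, Klhl22 and Gpr89b, had means from 9.64 to 119.7 FPKM. With 4 libraries a small SD is itself imprecise, and 0 to 5 of the 15 kept their place when 1 library was left out. Of 18 usual reference genes, 7 were steady and 2 variable, against 16.9% and 13.5% of all genes ranked. Without replicate 1 the counts were 11 and 1, near the 59.2% and 3.01% of all genes. Tubb5, encoding a tubulin, was at 462, 483, 475 and 488 FPKM, and Rpl13a, a ribosomal protein, at 127, 129, 130.4 and 132 FPKM, with no library apart. Gapdh, a glycolytic enzyme often used as a standard, was at 469, 584, 775 and 695 FPKM, lowest in replicate 1.

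In 452 genes (4.18%) 1 library stood apart, at least 2-fold above or below all of the other 3, and in 373 of them that library was replicate 1. It was the low one in 274 genes (2.54%) and the high one in 99 (0.916%). For replicates 2, 3 and 4 the counts of genes where they were high were 20 (0.185%), 10 (0.0926%) and 13 (0.12%), and those where they were low were 13 (0.12%), 17 (0.157%) and 19 (0.176%). Of the genes low in replicate 1, 19.3% had several loci, against 9.64% of all genes ranked.

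Genes low in replicate 1 alone included abundant neuronal and growth factor genes. Cd81, a tetraspanin, stood at 592, 1737, 1622 and 1355 FPKM, Rab3a, a vesicle GTPase, at 220.4, 443, 493 and 489 FPKM, and Igf2, a growth factor of meninges and choroid plexus, at 81.4, 384, 227 and 365 FPKM. Hspa12a, a chaperone-like gene, was listed at 0 in replicate 1 and at 18.2, 22.1 and 23.8 FPKM in the others, and Iqub at 0 against 18.4 to 21.9. Genes high in replicate 1 alone included Cartpt, above, Eif4a2, a translation helicase, at 416, 178, 208 and 196 FPKM, and Calb1, a calcium buffer, at 99.9, 43.5, 38.4 and 42.5 FPKM. Gstm1, a glutathione transferase, stood at 41.4, 0.798, 0.677 and 4.68 FPKM, and Stk24, a kinase, at 25.6, 1.8, 2.32 and 2.73 FPKM. Both were under 5 FPKM in every other library. Across all genes ranked, replicate 1 was the lowest library for 40.4% and the highest for 40.1%. Scaling by a median of ratios itself favours such a near-equal split. These shares are given only as the background for the lists.

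The lists were not shared evenly between these ends. Replicate 1 was the lowest library for 20 of 24 collagen and matrix genes, 15 of 19 mural and meningeal markers, 15 of 20 microglia and complement genes, 24 of 32 synaptic vesicle genes and 22 of 31 tubulin and actin genes. It was the highest for 25 of 35 proteasome genes, 42 of 74 genes of nuclear RNA machinery and 37 of 67 ribosomal protein genes. Sparc, a collagen-binding matrix protein, stood at 889, 1487, 1465 and 1428 FPKM, and Col1a1, a fibrillar collagen, at 16.1, 58.9, 42.6 and 42 FPKM. Vwf, a clotting protein of endothelium, stood at 7.31, 16.9, 21.4 and 19.3 FPKM, with the summed endothelial list at 1019, 1479, 1659.7 and 1670.4 FPKM. Most of that sum was 1 member, Bsg, at 681, 1115, 1232 and 1293 FPKM. Replicate 1 was the lowest library for 10 of the 16 endothelial markers, against 40.4% of all genes ranked. Egr1, an immediate early gene, stood at 14.2, 42, 50.8 and 36.8 FPKM, lowest in replicate 1, as were 17 of 26 immediate early genes. The GC content of promoters was compared too. From the fifth of genes with the lowest promoter GC content to that with the highest, the median log2 difference of replicate 1 from the other 3 went from 0.07 to -0.07. The part of GC content in the values of single genes was not tested.

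**Figure D4:**
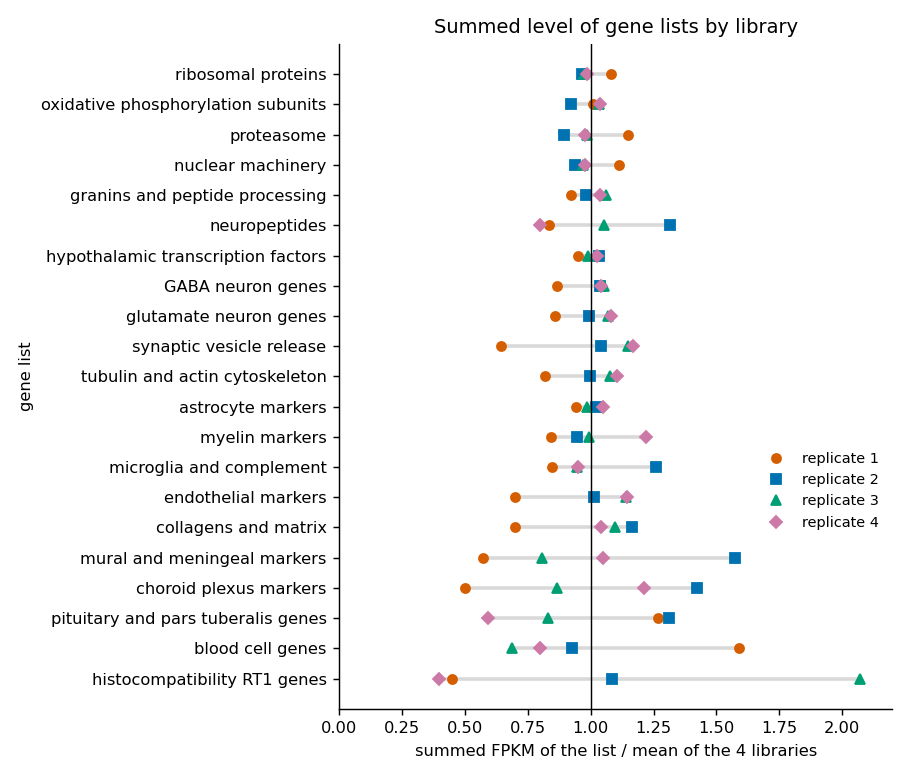
Summed FPKM of 21 gene lists in each library, divided by the list's mean over the 4 libraries. Replicate 1 (orange) is the lowest library for the matrix, endothelial and synaptic vesicle lists and the highest for proteasome and blood cell genes, and the histocompatibility list spreads widest.

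The RT1 complex of the rat holds the histocompatibility genes, which present peptides to immune cells and differ widely between individuals. Its list here also holds partner genes such as B2m and Cd74. That list varied most in summed FPKM among the 42 lists, by the ratio of the highest to the lowest library. Of 17 members of at least 1 FPKM, 12 were variable and none was steady, and without replicate 1, 9 of 17 were variable. RT1-CE16, a class I gene, was listed at 0 in replicates 1 and 4 and at 1910.3 and 2758 FPKM in replicates 2 and 3. RT1-CE14, another class I gene, stood at 134, 38.3, 2049.9 and 493 FPKM, high in replicate 3. RT1-T24-2 stood at 480.0, 0.01, 0.096 and 3.87 FPKM, high in replicate 1 alone. Each of the 3 had its own pattern of high libraries. These genes are near-copies of each other, so fragments may be divided between them and single values are uncertain. Together the list, with B2m and Cd74 included, summed to 1180.3, 2866, 5471 and 1052 FPKM. Of these sums B2m, the shared light chain of class I molecules, made up 409.8, 428, 423 and 339 FPKM.

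Class II genes followed another pattern. Cd74, the invariant chain that escorts class II molecules, stood at 73, 317, 125 and 114 FPKM, and RT1-Da and RT1-Db1, class II chains, followed, RT1-Da at 20.8, 53.6, 16 and 18.6 FPKM and RT1-Db1 at 8.75, 33.6, 8.47 and 5.68 FPKM. Replicate 2 was at least 2-fold above the rest in all 3. RT1-Ba, a further class II chain, was also highest there at 6.54, 14.9, 5.19 and 8.05 FPKM. The summed microglia and complement list, which holds Cd74, was 913, 1359, 1019.7 and 1023 FPKM and, without Cd74, 840.4, 1042, 895 and 909.5 FPKM, highest in replicate 2 both ways. Its part in the class II values was not tested.

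Some genes of tissue that borders the hypothalamus were among the most variable. Not all such lists were uneven. Of 24 thalamic and striatal neighbour genes, 3 were variable, near the 13.5% of all genes ranked, and 0 without replicate 1. Of 18 pineal genes kept, only 6 had a mean of at least 1 FPKM, and 0 of the 6 were variable. With most of that list below 1 FPKM, its evenness cannot describe pineal tissue. Cga, the common alpha subunit of pituitary glycoprotein hormones, stood at 322, 301, 176 and 19.7 FPKM, and Tshb, the beta subunit of thyrotropin, at 6.04, 15.2, 12.5 and 1.99 FPKM. Replicate 4 was the low library for both, at least 2-fold below the rest. Of 21 pituitary and pars tuberalis genes, 10 had a mean of at least 1 FPKM, and the sum of the list was 894, 925, 586 and 417 FPKM, or 572, 624, 411 and 397 FPKM without Cga. Prl was listed at 0 in all 4 libraries and Gh1, encoding growth hormone, stood at 0.0715, 0.07, 0.15 and 0 FPKM. Pomc is also a hypothalamic gene, and its order over the libraries followed that of Cga. The part of pituitary tissue in the Pomc values was not tested.

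Several meningeal and choroid plexus genes were highest in replicate 2, though most of those named here were set apart by a low replicate 1. Ttr, the thyroid hormone carrier made by choroid plexus, stood at 10.9, 83, 10.1 and 16.8 FPKM, and Slc22a6, an organic anion carrier of the meninges, at 6.74, 32.4, 16.5 and 15.1 FPKM. Fmod, a small matrix proteoglycan, stood at 7.06, 43.8, 26.6 and 26.6 FPKM and Igfbp2, a binding protein of insulin-like growth factors, at 70.5, 252, 147 and 226 FPKM. Only Ttr was at least 2-fold above the rest in replicate 2. For Slc22a6, Fmod and Igfbp2, replicate 1 was at least 2-fold below the rest. Of 19 mural and meningeal markers 10 were variable, and the sum was 4905, 13532, 6949 and 9035 FPKM, most of it Ptgds. Without Ptgds the sum was 543, 1114, 1080.4 and 986 FPKM, so replicates 2 to 4 were close and replicate 1 was low. Of 20 choroid plexus markers 15 had a mean of at least 1 FPKM and 9 of these were variable, with a sum of 343, 975, 594 and 832 FPKM. Among the genes that define choroid plexus, Folr1 was at 6.39 ± 0.974 FPKM, Kl at 1.33 ± 0.372 FPKM and Otx2 was listed at 0 in every library. The summed choroid plexus list and Ptgds had the same order of libraries, and the part of either tissue in the rank of Ptgds was not tested.

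Smooth muscle genes had another order. Acta2 and Tagln, contractile genes of vessel walls, differed alike, Acta2 at 77, 121, 191 and 104 FPKM and Tagln at 116, 167, 259.8 and 150.0 FPKM, both highest in replicate 3 and lowest in replicate 1. Myh11, the smooth muscle myosin, was at 21.1, 25.8, 37.3 and 20.6 FPKM, also highest in replicate 3. Blood cell genes were highest in replicate 1, which was the top library for all 6 members of at least 1 FPKM. Hbb-b1, a beta globin, stood at 125, 38, 17.1 and 19.5 FPKM, and Alas2, the heme enzyme of red cells, at 20.2, 14.8, 3.49 and 7.24 FPKM. The count of variable members in these lists depended on replicate 1 to different degrees. With all 4 libraries 10 of 19 mural and meningeal, 8 of 24 collagen and matrix, 9 of 15 choroid plexus, 7 of 32 synaptic vesicle, 5 of 10 pituitary and 5 of 6 blood cell genes were variable. Without replicate 1 the counts were 2, 1, 3, 0, 4 and 4 in the same order, against 3.01% of all genes.

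**Figure D5:**
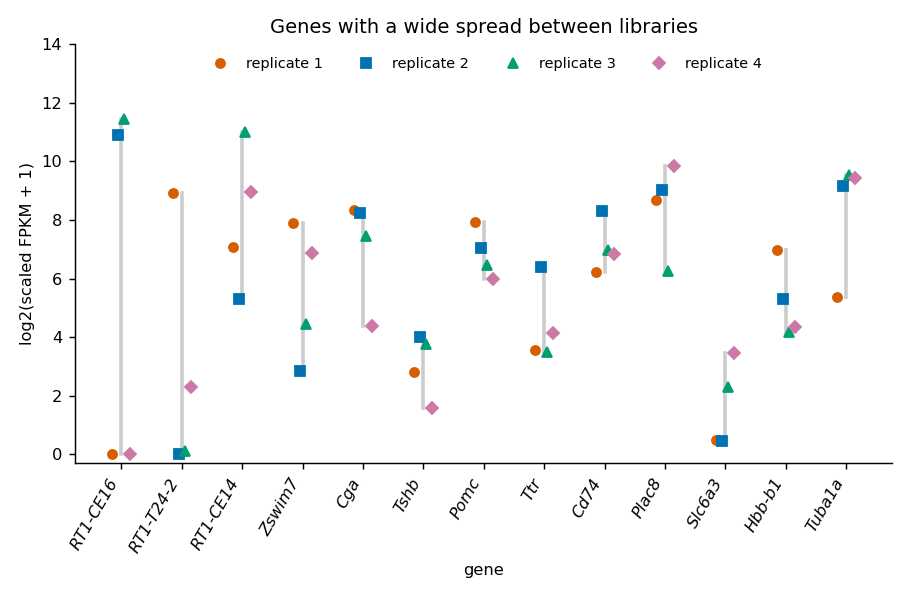
Values of 13 genes with a wide spread, as log2(scaled FPKM + 1), 1 symbol per library. The high and low libraries differ from gene to gene, with RT1-CE16 high in replicates 2 and 3, Cga low in replicate 4, Ttr high in replicate 2 and Tuba1a low in replicate 1.

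Slc6a3 and Th, both genes of dopamine neurons, were high in replicates 3 and 4. Slc6a3, the dopamine transporter, stood at 0.389, 0.388, 3.93 and 9.96 FPKM, and Th, the rate-limiting enzyme of catecholamine synthesis, at 20.6, 18.1, 35.2 and 55.1 FPKM. Both were highest in replicate 4. In contrast Slc18a2, the vesicular monoamine carrier, was even at 12.9, 13.9, 14.4 and 13.3 FPKM, and Hdc, which makes histamine, was at 39.5, 28.7, 29 and 31.3 FPKM. Grifin, a galectin-related gene, stood at 7.11, 6.93, 12 and 97.3 FPKM, high in replicate 4 alone.

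Other single genes also had a wide spread. Hsd3b7, a bile acid enzyme, stood at 5.23, 112, 125 and 129.9 FPKM, and Serhl2, a serine hydrolase-like gene, at 3.86, 48.4, 52.6 and 56.9 FPKM, both low in replicate 1 alone. Polr2l, a subunit shared by the RNA polymerases, was listed at 0 in replicate 1 and at 1.70, 30.4 and 3.54 FPKM in the others, high in replicate 3. LOC287167 stood at 199, 60.3, 11.4 and 21.8 FPKM, with replicate 1 highest. Plac8, a cysteine-rich protein gene, stood at 409.8, 521, 74.8 and 911 FPKM, low in replicate 3. Others split the libraries differently. Zswim7, which takes part in DNA repair, stood at 237, 6.24, 21 and 115 FPKM, and Actg1, a cytoplasmic actin with many near-identical copies, at 112, 55.2, 12.4 and 66.1 FPKM. Ndufb2, a subunit of respiratory complex I, stood at 116, 98.2, 107 and 23.5 FPKM, low in replicate 4 only, in a list of 70 subunits of which 7 were variable, or 3 without replicate 1. Across pairs of libraries, 13 genes were at least 2-fold higher in replicates 2 and 3 than in both others, Avp, LOC685322 and RT1-CE16 among them, and 14 genes in replicates 1 and 2. The other 4 ways to split the libraries into pairs held 1 to 15 genes each.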

How the data were processed

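Poly-A RNA of the 4 hypothalamus samples was sequenced on a HiSeq 2000 and demultiplexed with CASAVA 1.8.2, per the labels' protocols. Alignment and quantification tools listed in the submitters' processing notes are Cufflinks and Cuffdiff, Bowtie and Bowtie2, TopHat and TopHat2, with the rat build rn5 and with versions and roles not given in the sources used here. The values are FPKM per locus as the authors deposited them, with a status per locus and library. Read numbers are unknown, so no counting interval was given, and a value of 0 was treated as listed.

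Of 17762 loci, 36 with a status other than OK in any library were dropped, which removed 29 symbols. FPKM was summed over the loci of a symbol and divided by a median-of-ratios factor per library, computed within this table. Genes averaging 1 FPKM or more were ranked. Variable, steady and apart were called by fold (2, 1.2 and 2), with no test, because 1 group has nothing to be tested against. Promoter sequences came from RefSeq (GRCr8), where 98.2% of the ranked genes matched an entry and 80.3% had a promoter. Python 3.11.15 was used with pandas, numpy and matplotlib, and the calling steps were tested on simulated data.

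The genes described were the 20 highest means, the 15 largest and 15 smallest SDs of log2(FPKM + 1) at a mean of at least 5, the 5 widest gaps per library and direction, and from each of 42 lists the 3 highest means and 2 largest ratios, with all neuropeptides and granins eligible. Of the genes named, 40 fall outside this rule and were chosen after their values were seen, as markers or list members. The libraries and gene lists were chosen with earlier results of these data known. Some genes are not reported here. Alternatives covered scaling, filters, pseudocount, fold limits, loci and each library left out.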

Additional observations from a re-analysis of the deposited data

Results flagged for a closer look

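In a group of 4 libraries, a value was taken as far from the others when its gap to the nearest library, divided by the whole range, exceeded Dixon's critical value at the 95% level. Chance gives about 1 in 20 such cases per group, and 1428 of the 10804 genes ranked (13.2%) met the rule, 831 of them with replicate 1 highest and 406 with it lowest. The figure in brackets is that ratio.

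Among the genes named, replicate 1 was far below the rest for Arnt2 (0.875), Cntfr (0.994), Cst3 (0.882), Hsd3b7 (0.856), Iqub (0.839), Mc3r (0.882), Nnat (0.992), Nr1d1 (0.859), Ptprn (0.893), Ramp2 (0.87), Serhl2 (0.84), Sparc (0.902) and Vamp2 (0.878). It was far above the rest for Calb1 (0.916), Cartpt (0.869), Eif4a2 (0.875), Gstm1 (0.902), Ppia (0.876), RT1-T24-2 (0.992), Scg2 (0.86), Scg3 (0.935), Slc17a6 (0.926) and Stk24 (0.961). Replicate 2 was the far highest library for Gatad2b (0.839), RT1-Da (0.873), RT1-Db1 (0.89) and Ttr (0.909). Replicate 3 was the far highest library for Polr2l (0.884) and Slc2a5 (0.959). Replicate 4 was the far highest library for Grifin (0.944). Replicate 4 was the far lowest library for Rax (0.942). Among summed levels, replicate 1 was far above the rest for ribosomal protein genes (0.835) and far below for GABA neuron genes (0.923) and receptors of energy balance (0.835). The share of FPKM held by its top 1000 genes, 60.9%, was also far below the 63.4 to 63.7% of the others (0.888). No cause was tested for any of these values.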

How the results depend on the processing

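Values as deposited, upper-quartile and quantile scaling each kept every count within 1.5 times. The number of variable genes (1462) was 3584 with no filter on the mean, 854 at a mean of at least 5 FPKM, 856 with ratios of FPKM + 1, 4622 with a limit of 1.5-fold and 325 to 1238 with 1 library left out. Steady genes (1821) numbered 413 with a limit of 1.1-fold and 2425 to 6391 with 1 library left out. Genes with 1 library apart (452) numbered 1715, 276 and 267 under the same filters and ratios, 2189 at 1.5-fold and 159 to 641 with 1 library left out. Genes low in replicate 1 (274) numbered 452 with no filter and 1064 at 1.5-fold, and genes high in replicate 1 (99) numbered 328 with no filter, 45 at a mean of at least 5 FPKM, 44 with FPKM + 1, 861 at 1.5-fold and 127 to 188 with another library left out. Replicate 1 decided most of these: without it 325 genes were variable and 6391 steady, and 308 of the 1462 variable genes kept the call. Of the 15 largest SDs, 9 were shared with the coefficient of variation and 7 to 14 with 1 library left out. Of the 15 smallest, 0 to 5 were shared with 1 library left out, an alternative chosen after seeing the data. Of 462 recomputed list shares, 20 moved by over 1 SD, 18 of them when symbols with several loci were dropped. The cause of these shifts was not tested. No paired analysis was possible because only 1 group was used. With unknown depth, the precision of genes near 1 FPKM cannot be stated.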

Other observations

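Clock genes, which time daily rhythms, were seldom variable, with 1 of 18 against 13.5% of all genes ranked. Without replicate 1 none of 18 was variable, against 3.01%. Few were steady either, 2 of 18 against 16.9% of all genes ranked. Dbp, an output gene of the clock, stood at 76.8, 121, 124 and 114 FPKM, and Nr1d1, a clock repressor, at 33.4, 63.9, 61.4 and 59.6 FPKM. Replicate 1 was the low library for both, and for 11 of the 18 genes, against 40.4% of all genes ranked. Arntl, a core activator, stood at 7.11, 7.26, 6.67 and 7.58 FPKM, a range of 1.14-fold. The 1 variable gene was Per1, a clock gene that also responds to neuronal activity, at 6.49, 14.3, 16.2 and 12.3 FPKM.

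Interferon-stimulated genes, which respond to viral signals, had a median of 7.75 FPKM, against 12.9 for all genes ranked. Of 15 genes, 5 were variable, against 13.5% of all genes ranked and 18.9% of those from 1 to 10 FPKM. Without replicate 1, 3 of 15 were variable, against 3.01% of all genes. Bst2, an antiviral membrane protein, stood at 27.6, 79.3, 80.4 and 46.3 FPKM, and Isg15, a ubiquitin-like protein, at 10.4, 14, 19 and 12.8 FPKM. The summed list was 194, 258, 253 and 183 FPKM, higher in replicates 2 and 3 than in 1 and 4. Genes of iron storage differed within the ferritin pair. Ftl, the light chain, stood at 71.2, 42.5, 14.6 and 15.3 FPKM, high in replicates 1 and 2, whereas Fth1 was 2751, 3559.6, 3381 and 3213 FPKM in the same libraries. Ferritin genes have many processed copies, so these values are uncertain.

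Ependymal and tanycyte genes, which line the third ventricle, had 21 of 21 members at a mean of at least 1 FPKM. Of these 2 were variable, against 13.5% of all genes ranked, or none without replicate 1, against 3.01%. Vim, an intermediate filament of these cells, stood at 347, 473, 347 and 304 FPKM, highest in replicate 2. Rax, a transcription factor of tanycytes, and Dio2, the enzyme that activates thyroid hormone, stood at 4.15 ± 0.638 FPKM and 4.09 ± 0.485 FPKM.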
